A study of Mus musculus with 24 samples.

Results

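The platelet-derived growth factor (PDGF) ligands and their receptors are encoded by 6 of the 23420 genes measured in these lungs, 4 ligand genes (*Pdgfa*, *Pdgfb*, *Pdgfc*, *Pdgfd*) and 2 receptor genes (*Pdgfra*, *Pdgfrb*). Their rows were found by gene symbol. Their reads were compared in the left lung lobes of 24 mice in 8 groups of 3, at postnatal day 2 (P2) and postnatal day 5 (P5), the days around the onset of alveolar formation. The *Vangl2* mutants were *Sox9* Cre/+; *Vangl2* f/f and the *Ror2* mutants *Sox9* Cre/+; *Ror2* f/f, and each mutant and age had its own 3 controls, given as WT. The titles of the *Vangl2* controls read "Control(Vangl1/2)". For the P2 *Ror2* mutants and the P5 *Vangl2* mutants the title and the genotype entry name different floxed genes, and the titles were followed. *Sox9*-Cre deletes in the SOX9+ distal epithelium, whereas the lobes were sequenced whole, so that every value mixes epithelium with fibroblasts, vessels and blood. Nothing in the labels ties the replicates to separate litters, and the p-values measure the spread between these lungs.

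PDGF ligands are secreted dimers that bind a pair of receptor tyrosine kinases. In the developing lung, PDGF-A comes mainly from the epithelium and acts through PDGFRα on the fibroblasts that become alveolar myofibroblasts, the contractile, elastin-producing cells of the secondary septa. PDGF-B is made by endothelial cells and acts through PDGFRβ on pericytes, the mural cells of capillaries. PDGF-C and PDGF-D carry an N-terminal CUB domain that proteases must remove before they can bind a receptor. The study asked how *Vangl2* and *Ror2*, which act in planar cell polarity signaling, control alveolar formation, and PDGF signaling from the epithelium to fibroblasts was part of that question.

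Much of what follows turns on *Pdgfa* and *Pdgfra*, and the study's own quantitative PCR primers for these genes are shown because of how they are listed. The reagent list gives 2 primer pairs, both under *Pdgfra*. All 4 sequences are written 5′ to 3′, with no base marked by capitals.
Pair 1 forward: ctggctcgaagtcagatccaca
Pair 1 reverse: gacttgtctccaaggcatcctc
Pair 2 forward: tgcagttgccttacgactccagat
Pair 2 reverse: agccaccttcattacaggttggga
Against all GENCODE vM21 transcripts, both primers of pair 1 matched only *Pdgfa*. The forward primer lies in exon 2 of 6 of the transcript Pdgfa-202 (chr5:138993330-138993351, GRCm38, minus strand) and the reverse primer in exon 3 (chr5:138988427-138988448), both in coding sequence, and they enclose 91 bases of the transcript. Pair 2 matched only *Pdgfra*, in exons 12 and 13 of 23 of Pdgfra-201 (chr5:75178009-75178032 and chr5:75180233-75180256, plus strand). Both of these sites are coding and they enclose 143 bases. The pair that stands first under the receptor therefore matches its ligand in full.

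The promoters of these genes differ in base composition, and the 250 bases before the RefSeq start (build GRCm38.p6) are shown for the ligand and the receptor whose estimates had opposite signs at P5. Of the 6 genes, 4 had such a window, and *Pdgfb* and *Pdgfrb* are only named. For the *Pdgfa* start shown, capitals mark GC boxes (GGGCGG on either strand), the binding sequence of Sp/KLF factors.
Pdgfa (chr5:138994945-138995194, minus strand): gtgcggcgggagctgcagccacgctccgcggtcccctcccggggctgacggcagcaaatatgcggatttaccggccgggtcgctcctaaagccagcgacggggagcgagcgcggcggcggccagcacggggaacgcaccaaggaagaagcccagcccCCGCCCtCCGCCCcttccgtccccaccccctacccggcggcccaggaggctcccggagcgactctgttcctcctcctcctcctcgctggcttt
Pdgfra (chr5:75152001-75152250, plus strand): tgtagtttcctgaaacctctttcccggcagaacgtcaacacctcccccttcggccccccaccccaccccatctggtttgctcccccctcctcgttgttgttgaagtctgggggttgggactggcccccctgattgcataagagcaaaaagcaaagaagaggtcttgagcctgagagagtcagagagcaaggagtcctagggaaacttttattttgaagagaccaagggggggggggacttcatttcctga
The *Pdgfa* window has 72.4% G and C and 2 GC boxes, whose first bases lie at -93 and -86 from the start. A further RefSeq start of *Pdgfa* has 66.4% G and C and 1 GC box at -60. The *Pdgfra* window has 54.4% G and C, close to the median of 52.4% over 32851 mouse windows of that length, of which 32.7% hold a GC box. None of the 5 motifs searched was found in it. The others were CCAAT (the CCAAT box, in 33.8% of windows), TATAAA (the TATA box, 12.4%), TGANTCA (the AP-1 site, 6.7%) and CATTCC (the TEAD site, 12.6%), each on both strands. The *Pdgfc* window holds a TEAD site at -137 and the *Pdgfd* window a TATA box at -160.

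Values are reads on a gene divided by the size factor of the lung, called normalized read counts. Between 16178031 and 21546673 reads fell on genes in 23 lungs, including estimates for some P5 controls whose reads were not taken as recovered. Control replicate 1 of the P5 *Ror2* comparison had 13823693, and all genes of chromosomes 6 to 9, X and Y with a mean of at least 50 in the other controls were listed at 0 in it, as were 573 of 797 such genes of chromosome 5. *Pdgfa*, *Pdgfra* (both chromosome 5) and *Pdgfd* (chromosome 9) fall in these regions, so they have 2 controls against 3 mutants in that comparison. The deleted genes were read from whole lobes. *Vangl2* had 249, 302 and 281 normalized read counts in the P2 *Vangl2* controls and 241, 224 and 173 in the mutants, and 369, 314 and 292 against 170, 148 and 166 at P5. *Ror2* had 451, 581 and 520 in the P2 *Ror2* controls against 479, 349 and 366, and 526, 368 and 597 against 362, 440 and 521 at P5, so the *Ror2* groups overlapped at both ages. *Sox9*, from whose locus Cre is expressed, had 190, 187 and 145 in the P2 *Vangl2* controls against 165, 154 and 288. At P5 it had 105, 153 and 128 against 99.9, 87.3 and 81.3. In the P2 *Ror2* lungs it had 127, 153 and 129 against 104, 77.7 and 93.5. In those of P5 it had 83.0, 155 and 102 against 53.9, 40.7 and 50.6. With controls given as WT, the Cre allele and the deletion came together in the mutants, and their parts cannot be told apart. Every lung expressed the alveolar markers *Sftpc* (at least 91779 normalized read counts) and *Ager* (at least 22918), and the atrial gene *Nppa* had at most 112. *Xist* was above 1000 normalized read counts in 11 of the 23 complete lungs and the sexes were not balanced between groups. At P5 it was above that level in 3 of 3 *Vangl2* controls and 2 of 3 mutants, and in 1 of 2 *Ror2* controls and 0 of 3 mutants. The part of sex in the results was not tested.

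In the control lungs the genes for the endothelial ligand and its mural cell receptor had the most reads per length. Levels were compared between genes as normalized read counts per kilobase of exon (GENCODE vM21). In the P2 *Vangl2* controls *Pdgfb* had 1165 ± 97.3 per kilobase (SD, n = 3) and *Pdgfrb* 1123 ± 43.6, and these values overlapped between lungs. *Pdgfa* followed with 601 ± 99.7, *Pdgfra* with 339 ± 63.8, *Pdgfd* with 55.2 ± 6.14 and *Pdgfc* with 22.6 ± 1.38, each without overlap with the next.

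That order was nearly the same in all groups. *Pdgfb* exceeded *Pdgfa* and *Pdgfd* per kilobase in 23 of 23 lungs, and *Pdgfd* exceeded *Pdgfc* in 23 of 23. *Pdgfrb* exceeded *Pdgfra* in 23 of 23 lungs. The pairs whose order varied were *Pdgfrb* and *Pdgfb* (the receptor higher in 16 of 24) and *Pdgfa* and *Pdgfra* (the ligand higher in 16 of 23). *Pdgfa* was above *Pdgfra* in the mean of each P2 group and of both P5 mutant groups. In both P5 control groups *Pdgfra* was above *Pdgfa*, at 500 ± 81.0 against 337 ± 31.1 per kilobase in the *Vangl2* controls (n = 3) and 572 ± 39.7 against 302 ± 29.6 in the *Ror2* controls (n = 2), without overlap. Of the summed level of the 4 ligands per kilobase, *Pdgfb* made up between 58.7% and 79.0% over 23 lungs, *Pdgfa* between 16.1% and 36.9%, *Pdgfd* between 2.72% and 5.28% and *Pdgfc* between 0.939% and 3.48%.

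**Figure D1:**
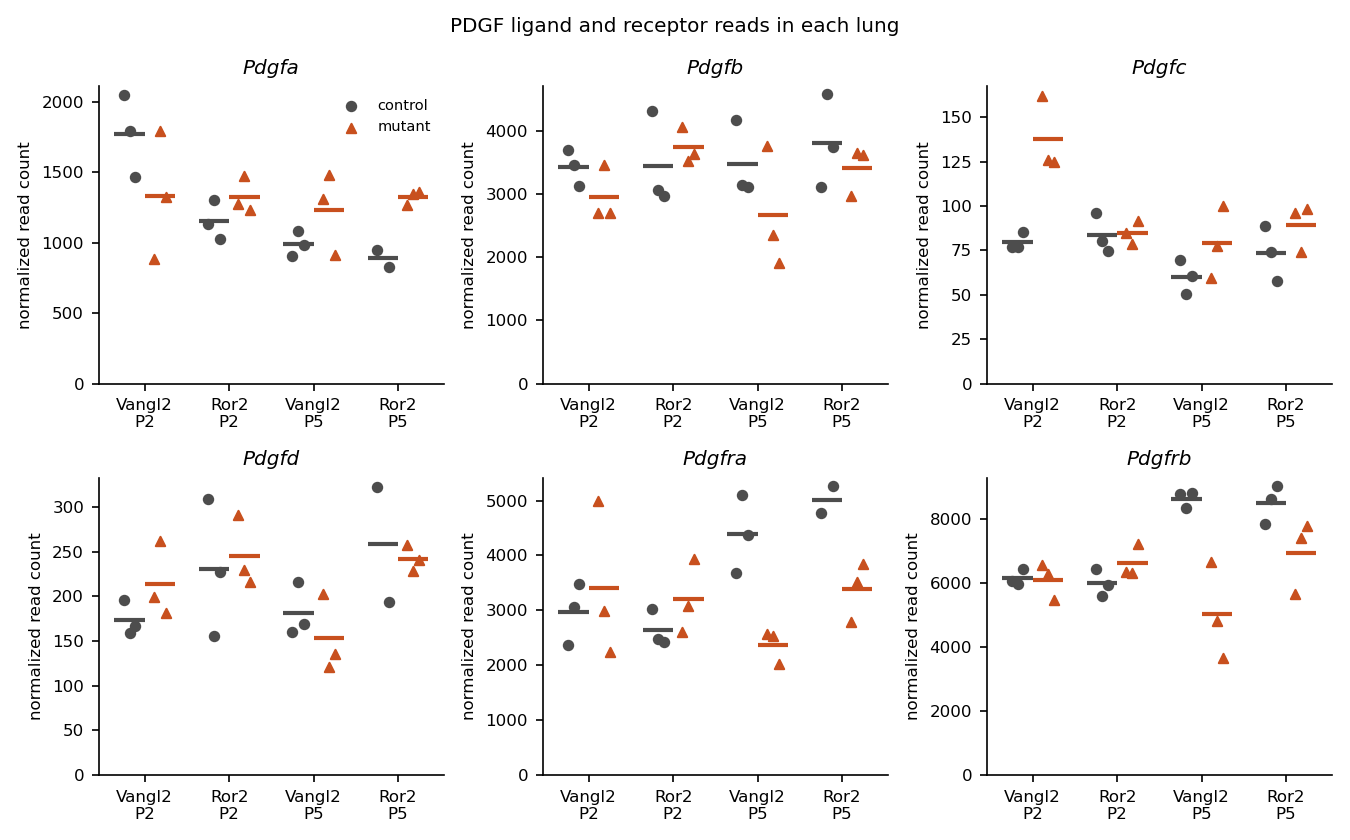
Normalized read counts of the 6 PDGF genes in each lung (y axis, from 0), by comparison (x axis), with controls as grey circles, mutants as orange triangles and bars at the group means. The mutants lie below all controls for *Pdgfra* and *Pdgfrb* at P5, and above all controls for *Pdgfc* in the P2 *Vangl2* and *Pdgfa* in the P5 *Ror2* comparison, where *Pdgfa*, *Pdgfd* and *Pdgfra* have 2 controls.

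None of the 6 genes passed the threshold in any of the 4 comparisons (limma on log2(normalized read count + 1), Benjamini-Hochberg adjusted p under 0.05 over all genes tested). The share of all genes that passed was 3.59% in the P2 *Vangl2*, 0% in the P2 *Ror2*, 0.563% in the P5 *Vangl2* and 0.182% in the P5 *Ror2* comparison. At an unadjusted p under 0.05 there were 1, 0, 2 and 3 of the 6 genes, against 22.5%, 19.3%, 18.8% and 18.5% of all genes. On reads recovered from the P2 tables, edgeR called 0 of 6 in both comparisons (3.67% of all genes in the *Vangl2*, 0% in the *Ror2* comparison), and DESeq2 called 1 in the *Vangl2* comparison (11.5% of all genes) and 0 in the *Ror2* comparison (4.58%). Mutants and controls did not overlap for 1, 0, 2 and 3 of the 6 genes. Among all genes with 3 lungs on each side this held for 29.6%, 25.7%, 25.7% and 26.1%, and among genes with 2 controls in the P5 *Ror2* comparison for 37.7%. With 6 genes these counts cannot be set apart from the backgrounds.

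**Figure D2:**
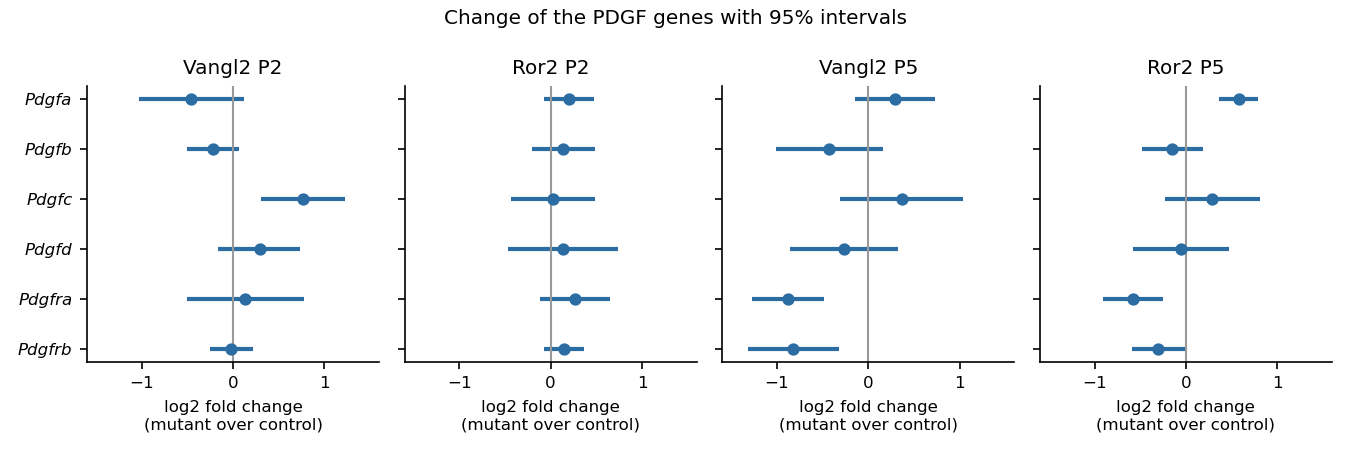
Log2 fold change (x axis, mutant over control) of each PDGF gene (y axis) in the 4 comparisons, with points at the limma estimate and lines for its 95% interval. The intervals that leave out 0 are those of *Pdgfc* in the P2 *Vangl2* comparison (0.31 to 1.23), of both receptors at P5 in both mutants and of *Pdgfa* in the P5 *Ror2* comparison.

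*Pdgfa*, the epithelial ligand of PDGFRα, had 2050, 1794 and 1464 normalized read counts in the P2 *Vangl2* controls and 882, 1791 and 1323 in the mutants. Mutant replicate 1 was the lowest of these 6 lungs and the groups overlapped (log2 fold change -0.46, standard error 0.25, limma adjusted p = 0.319). In the P2 *Ror2* comparison it had 1134, 1299 and 1025 against 1275, 1472 and 1229, again with overlap (0.20, 95% interval -0.07 to 0.47). At P5 the *Vangl2* controls had 902, 1085 and 985 and the mutants 1310, 1478 and 912. Of these mutants 2 were above every control and replicate 3 was not (log2 fold change 0.29, standard error 0.19, limma adjusted p = 0.460). At P5 the *Ror2* controls had 950 and 827 and the mutants 1264, 1347 and 1358, and every mutant was above both controls. The log2 fold change of *Pdgfa* there was 0.58 (standard error 0.091, fold 1.49), with a limma adjusted p of 0.0803. Without mutant replicate 3 that p was 0.0397, over the alternatives it lay between 0.0397 and 0.400, and it was 0.562 with the listed 0 of control replicate 1 kept. The exact two-sided permutation test gave p = 0.200, the smallest that 2 lungs against 3 can give.

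*Pdgfb*, the endothelial ligand, overlapped between mutants and controls in all 4 comparisons. At P5 the *Vangl2* controls had 4173, 3141 and 3111 normalized read counts and the mutants 3755, 2356 and 1902, so that mutant replicate 1 lay among the controls. The log2 fold change was -0.43 with a 95% interval from -1.01 to 0.16. Each mutant was below the control of the same number, and with a term for the replicate number (the replicate block) the limma adjusted p of *Pdgfb* was 0.0812, against 0.408 without it (range over the alternatives 0.0812 to 0.745). In the other comparisons *Pdgfb* had log2 fold changes of -0.22 (P2 *Vangl2*), 0.14 (P2 *Ror2*) and -0.15 (P5 *Ror2*), with limma adjusted p between 0.336 and 0.627.

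*Pdgfc*, one of the ligands with a CUB domain, had few reads. It had 76.9, 76.8 and 85.2 normalized read counts in the P2 *Vangl2* controls and 162, 126 and 125 in the mutants. Each mutant was above each control. The log2 fold change was 0.77 (standard error 0.20, fold 1.71) with a limma adjusted p of 0.0750, which was 0.109 with the replicate block. It passed under DESeq2 on the recovered reads (adjusted p = 0.0101) and in limma without mutant replicate 3 (adjusted p = 0.0480), and over the alternatives it lay between 0.0101 and 0.268. The exact two-sided permutation test gave p = 0.100, the smallest that 3 lungs against 3 allow. In the P2 *Ror2* comparison *Pdgfc* had 95.9, 80.0 and 74.5 against 84.5, 78.7 and 91.4, and the groups overlapped. The difference between the changes in the 2 mutants at P2 was 0.75 on the log2 scale (standard error 0.25, 95% interval 0.19 to 1.30), with a limma adjusted p of 0.946 over all genes. At P5 the *Pdgfc* groups overlapped in both mutants (log2 fold changes 0.37 and 0.29).

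*Pdgfd*, the other ligand with a CUB domain, overlapped between groups in all 4 comparisons. At P2 it had 196, 159 and 167 normalized read counts in the *Vangl2* controls and 199, 262 and 181 in the mutants. Its log2 fold changes were 0.29, 0.13, -0.27 and -0.05 in the order P2 *Vangl2*, P2 *Ror2*, P5 *Vangl2* and P5 *Ror2*, with limma adjusted p from 0.416 to 0.920.

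*Pdgfra*, the receptor of myofibroblast precursors, was not separated between groups at P2. The *Vangl2* controls had 2375, 3061 and 3482 normalized read counts and the mutants 4988, 2985 and 2239, so the mutants held both the highest and the lowest value. Mutant replicate 1, with 4988, was also the lung with the fewest *Pdgfa* reads in this comparison. The log2 fold change was 0.13 with a 95% interval from -0.51 to 0.78, and without that mutant it was -0.18. The *Ror2* controls had 3030, 2473 and 2419 and the mutants 2600, 3079 and 3935 (log2 fold change 0.27, 95% interval -0.12 to 0.65).

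At P5 *Pdgfra* had 3680, 5100 and 4366 normalized read counts in the *Vangl2* controls and 2565, 2532 and 2025 in the mutants. Every mutant was below every control. The log2 fold change was -0.88 (standard error 0.17, fold 0.543), the limma adjusted p 0.0664, and *Pdgfra* ranked 196 of 17410 genes by p. Same-numbered *Vangl2* lungs tended to deviate together, and the replicate block brought the limma adjusted p to 0.0185 (range over the alternatives 0.0185 to 0.219). With that block 8.95% of all genes passed at P5. The *Ror2* controls had 4766 and 5258 and the mutants 2792, 3509 and 3842, again without overlap. Here the log2 fold change was -0.58 (standard error 0.14, fold 0.669) with a limma adjusted p of 0.135, which was 0.0419 without mutant replicate 3 and reached 0.428 over the alternatives. With the listed 0 of control replicate 1 kept, the sign turned (3.52, limma adjusted p = 0.572).

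*Pdgfrb*, the receptor of pericytes, had 6057, 5979 and 6426 normalized read counts in the P2 *Vangl2* controls and 6570, 6279 and 5456 in the mutants, a log2 fold change of -0.02 with a 95% interval from -0.25 to 0.22. In the P2 *Ror2* comparison it was 0.15 (-0.07 to 0.36), and the groups overlapped in both. At P5 the *Vangl2* controls had 8769, 8325 and 8797 and the mutants 6652, 4814 and 3644. The controls lay close together, the mutants spread widely and all were lower. The log2 fold change of *Pdgfrb* was -0.82 (standard error 0.22, fold 0.566), with a limma adjusted p of 0.120, which was 0.0349 with the replicate block and at most 0.306 over the alternatives. The P5 *Ror2* controls had 7834, 8615 and 9023 and the mutants 5657, 7416 and 7774. The mutants were lower by smaller margins (log2 fold change -0.30, standard error 0.13, limma adjusted p = 0.260). In whole lobes, fewer cells of a type and less RNA per cell cannot be told apart.

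The change of each gene at P5 was set against its change at P2 in 1 model over both tables, each with its own controls. For *Pdgfra* the P5 minus P2 difference was -1.01 (standard error 0.35) in the *Vangl2* and -0.84 (0.24) in the *Ror2* lungs on the log2 scale. For *Pdgfrb* it was -0.80 (0.25) and -0.45 (0.17), and for *Pdgfa* 0.75 (0.34) and 0.37 (0.15). The other 3 genes had differences of -0.20 (*Pdgfb*), -0.41 (*Pdgfc*) and -0.56 (*Pdgfd*) in the *Vangl2* lungs and of -0.28, 0.26 and -0.18 in the *Ror2* lungs, each with a 95% interval that included 0. An unadjusted p under 0.05 was thus found for 3 of the 6 PDGF genes in each model (*Pdgfa*, *Pdgfra* and *Pdgfrb*), and for 8.45% (*Vangl2*) and 9.53% (*Ror2*) of all genes. None of the 6 passed over all genes in either model (limma adjusted p from 0.450 to 0.890). No gene of the whole table passed in limma in either model. Between the mutants at P5 the *Pdgfra* changes differed by -0.30 (95% interval -0.82 to 0.22) and those of *Pdgfrb* by -0.52 (-1.11 to 0.07), so neither a like nor an unlike response was shown.

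The ratio of *Pdgfa* to *Pdgfra* within a lung does not depend on the scaling between lungs or tables. As log2 of the ratio of normalized read counts, not corrected for gene length, it was -2.03, -2.23 and -2.15 in the P5 *Vangl2* controls and -0.97, -0.78 and -1.15 in the mutants. In the P5 *Ror2* controls it was -2.33 and -2.67 and in the mutants -1.14, -1.38 and -1.50. All mutants were above all controls of their comparison. The difference was 1.17 (standard error 0.12) in the *Vangl2* and 1.16 (0.20) in the *Ror2* lungs, and stayed between 0.99 and 1.33 when any lung was left out. The exact two-sided permutation test gave p = 0.100 and 0.200, the smallest that these group sizes allow. *Pdgfra* by itself did not overlap in either comparison, nor did *Pdgfa* in the *Ror2* lungs, so the ratio is no separate evidence. Of single genes, 25.7% did not overlap in the P5 *Vangl2* comparison. With 2 controls in the P5 *Ror2* comparison it was 37.7%. That share was not computed for ratios of other genes.

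At P2 the ratio of *Pdgfa* to *Pdgfra* overlapped between mutants and controls. It was -0.21, -0.77 and -1.25 in the *Vangl2* controls and -2.50, -0.74 and -0.76 in the mutants, where replicate 1 stood apart. The *Ror2* lungs ranged from -1.42 to -0.93 in controls and from -1.68 to -1.03 in mutants. Between P2 and P5 the mean ratio of the controls differed by -1.39 (standard error 0.31) in the *Vangl2* and by -1.30 (0.22) in the *Ror2* set, with every P5 control below every P2 control (exact permutation p = 0.100 and 0.200, the smallest possible). P2 and P5 lungs form separate sets, so age cannot be told apart from other differences between the sets. The P5 mutants lay between the lowest (-1.68) and the highest (-0.21) of the P2 lungs other than *Vangl2* mutant replicate 1, and the P5 controls lay below all of these. The P2 lung set aside, at -2.50, lay within the range of the P5 controls (-2.67 to -2.03).

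The receptors were also set against each other. The log2 ratio of *Pdgfra* to *Pdgfrb* in the P5 *Vangl2* lungs was -0.99 ± 0.27 in controls and -1.05 ± 0.28 in mutants (SD, n = 3), a difference of -0.06 (standard error 0.23, exact permutation p = 0.800). In the P5 *Ror2* lungs it was -0.85 and -0.78 in the controls and -1.02, -1.08 and -1.02 in the mutants. These did not overlap, with a difference of -0.22 (standard error 0.04, exact permutation p = 0.200, the smallest possible). At P2 it overlapped in both mutants.

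**Figure D3:**
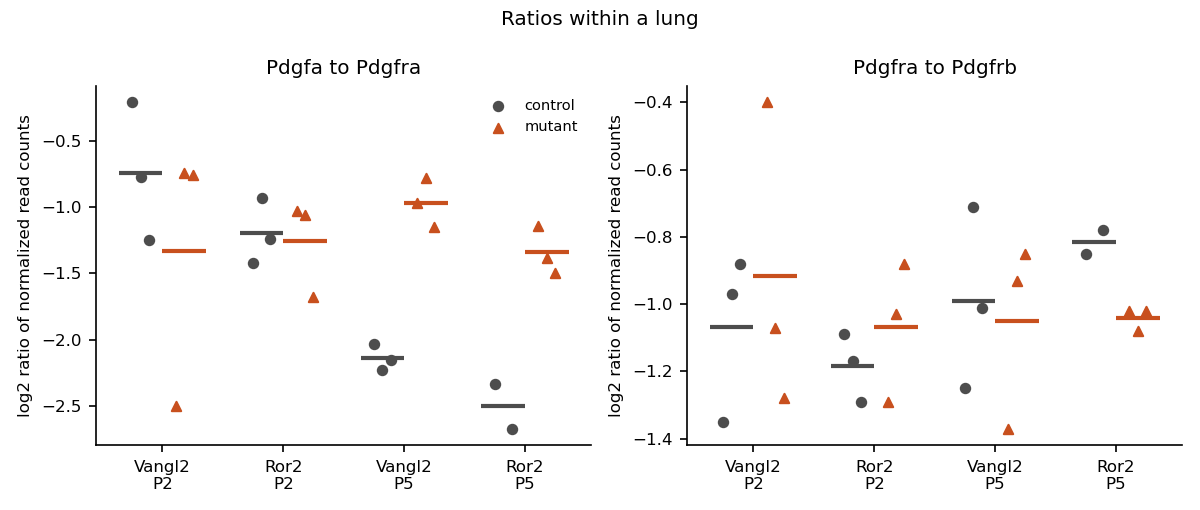
Log2 ratios of normalized read counts within each lung (y axis) by comparison (x axis), *Pdgfa* to *Pdgfra* at left and *Pdgfra* to *Pdgfrb* at right, with controls as grey circles, mutants as orange triangles and bars at group means. At left the P5 controls lie at or below -2.03 and the P5 mutants between -1.50 and -0.78.

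The other genes of the pathway were read from fixed lists. In the P2 *Vangl2* comparison, where 3.59% of all genes passed, so did 1 of 10 genes for ligand activation and binding. This was *St14*, which encodes the membrane protease matriptase, with 1022 ± 66.4 normalized read counts in controls and 1831 ± 184 in mutants (SD, n = 3; log2 fold change 0.84, limma adjusted p = 0.0265). None passed in the other 3 comparisons (P2 *Ror2*, P5 *Vangl2* and P5 *Ror2*). In these, 5, 4 and 2 of the 10 had an unadjusted p under 0.05, against 19.3%, 18.8% and 18.5% of all genes. The smallest p belonged to *St14* in the P2 *Ror2* (0.41, adjusted p = 0.203), to the receptor-like gene *Pdgfrl* in the P5 *Vangl2* (-0.89, adjusted p = 0.119) and to the convertase gene *Furin* in the P5 *Ror2* comparison (-0.29, adjusted p = 0.167; 2 controls against 3).

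None of 31 genes for kinases, adaptors and factors below the receptors passed in limma in any comparison. An unadjusted p under 0.05 was found for 22.5%, 19.3%, 18.8% and 18.5% of all genes, in the order P2 *Vangl2*, P2 *Ror2*, P5 *Vangl2* and P5 *Ror2*. Of the 31 genes 2, 4, 3 and 3 had one. Their median log2 fold changes were 0.06, 0.05, -0.11 and -0.06, beside 0.00, -0.01, 0.00 and 0.00 over all genes tested. At P5 25 of the 31 had a negative estimate in each mutant. The members with the smallest p were the transcription factor gene *Stat3* (0.58, adjusted p = 0.0928), the docking protein gene *Gab1* (0.37, adjusted p = 0.207), the kinase gene *Fyn* (-0.37, adjusted p = 0.200) and the adaptor gene *Shc1* (-0.33, adjusted p = 0.116). Of the 13 genes that attenuate the receptors, none passed in limma, and 5, 2, 1 and 3 had an unadjusted p under 0.05. Those with the smallest p were *Sh3kbp1* in the P2 *Vangl2* (-0.38, adjusted p = 0.105), *Acp1* in the P2 *Ror2* (-0.43, adjusted p = 0.203) and *Spry4* in the P5 *Vangl2* comparison (-1.05, adjusted p = 0.216). In the P2 *Vangl2* comparison, where 3.59% of all genes passed, 1 of 28 growth factor response genes passed, a share near that of all genes. It was *Etv4*, an ETS factor of the FGF and ERK response, with 471 ± 122 normalized read counts in controls and 156 ± 63.2 in mutants (log2 fold change -1.65, limma adjusted p = 0.0408). The response list had medians of 0.45, 0.22, -0.26 and -0.34, with 9, 12, 5 and 7 genes at an unadjusted p under 0.05, and its lowest adjusted p elsewhere were those of *Ier3* (0.95, adjusted p = 0.203), *Etv4* (-0.96, adjusted p = 0.132) and *Egr3* (-1.61, adjusted p = 0.118).

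Most mesenchymal and endothelial markers had negative estimates beside the receptors in the P5 *Vangl2* comparison. There, 19 of 20 alveolar myofibroblast and smooth muscle markers, 11 of 16 matrix and lipid fibroblast markers, 12 of 15 pericyte markers and 15 of 15 endothelial markers had a negative estimate, with medians of -0.57, -0.52, -0.59 and -0.49. The median over all genes tested was 0.00. The matrix fibroblast list was mixed, with 5 of 16 estimates positive and a range from -1.33 to 2.75. None of these markers passed in limma, and 8, 12, 8 and 10 had an unadjusted p under 0.05, against 18.8% of all genes tested. Their leading members were *Synpo2* (-0.85, adjusted p = 0.0575), *Adh1* (-1.01, adjusted p = 0.125), *Cspg4*, which encodes the pericyte proteoglycan NG2 (-0.93, adjusted p = 0.115), and *Erg* (-0.47, adjusted p = 0.121). The summed pericyte markers ranged from 71396 to 76790 normalized read counts in controls and from 33984 to 61385 in mutants. The summed endothelial markers ranged from 116993 to 132387 and from 72382 to 111204. The summed myofibroblast markers ranged from 179270 to 217028 and from 112000 to 168866, and the matrix fibroblast markers from 188353 to 199560 and from 104552 to 151655. No marker of these lists was at 0 in any lung. The part of these markers in the receptor values was not tested.

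In the same comparison all 12 macrophage markers had positive estimates (median 0.64), and *Cd14*, the lipopolysaccharide co-receptor gene, passed, with 166 ± 52.6 normalized read counts in controls and 706 ± 250 in mutants (log2 fold change 2.07, limma adjusted p = 0.0416). Summed macrophage markers were 4788 to 6029 in controls and 8715 to 9151 in mutants. Of the 12 alveolar type II markers 11 were positive (median 0.53) and *Dlk1* passed (1.74, limma adjusted p = 0.0202). Alveolar type I markers had a median of 0.17, with 9 of 12 estimates positive. None passed in limma and 3 of 12 had an unadjusted p under 0.05, against 18.8% of all genes. The leading type I member *Igfbp2* had -1.63 (adjusted p = 0.0646). Platelet and megakaryocyte markers, whose cells store PDGF, had a median of 0.24, with none passing in limma and 0 of 12 at an unadjusted p under 0.05 (leading member *Itga2b*, 0.44, adjusted p = 0.321). When 1 lung at a time was left out, *Dlk1* passed only without control replicate 1 and *Cd14* only without mutant replicate 2.

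In the P5 *Ror2* comparison the pericyte markers had a median of -0.25 and 12 of 15 negative estimates, and *Rgs5*, a regulator of G protein signaling in pericytes, passed with 1085 ± 180 normalized read counts in controls and 555 ± 54.4 in mutants (log2 fold change -0.96, limma adjusted p = 0.0475). The myofibroblast markers had a median of -0.19, and *Stc1*, a secreted glycoprotein gene, passed (-1.04, limma adjusted p = 0.0276). The matrix fibroblast list, with 7 of 16 positive estimates, had -0.14 and the endothelial list 0.03, with 0 members passing in limma and 4 and 1 at an unadjusted p under 0.05 (leading members *Ces1d*, 0.50, adjusted p = 0.150, and *Calcrl*, 0.35, adjusted p = 0.248). Without control replicate 1, summed pericyte markers ranged from 84883 to 85893 in the controls and from 59083 to 76547 in the mutants, and summed endothelial markers from 125669 to 136024 and from 124615 to 129678. Type I, type II and macrophage markers had medians of 0.08, 0.06 and 0.06 (*Spock2*, -0.49, adjusted p = 0.0833; *Dlk1*, 1.40, adjusted p = 0.150; *Siglec5*, -0.54, adjusted p = 0.446), and platelet markers -0.23 (*Ppbp*, -1.50, adjusted p = 0.102). Of the 12 markers tested in each of these lists, 9, 7, 9 and 4 had positive estimates. None of these markers passed in limma, and 5, 3, 0 and 1 of them had an unadjusted p under 0.05, against 18.5% of all genes tested. Neither *Rgs5* nor *Stc1* passed when control replicate 2, control replicate 3 or mutant replicate 2 was left out, and without control replicate 1 *Rgs5* did not.

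**Figure D4:**
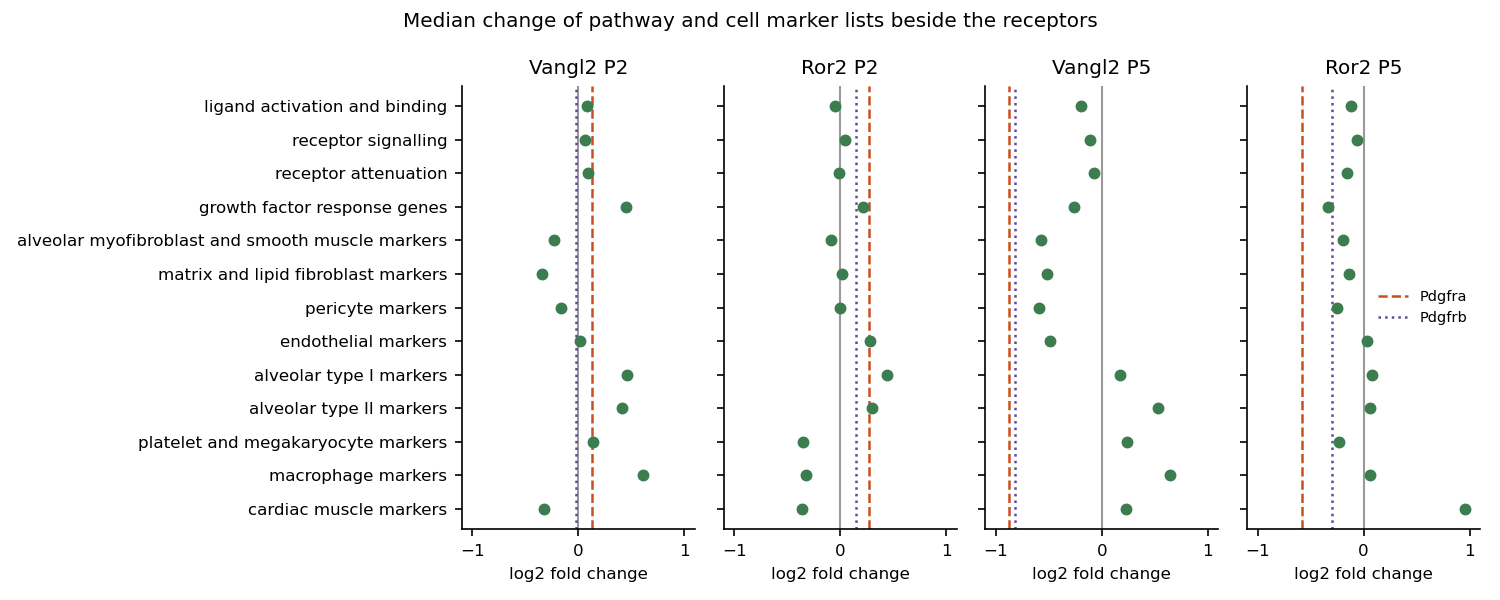
Median log2 fold change (x axis, mutant over control) of each gene list (y axis, green points) in the 4 comparisons, with a dashed line at *Pdgfra* and a dotted line at *Pdgfrb*. In the P5 *Vangl2* panel the myofibroblast, fibroblast, pericyte and endothelial lists have medians from -0.59 to -0.49, whereas in the P5 *Ror2* panel they lie from -0.25 to 0.03.

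At P2, when the receptor groups overlapped, several markers passed in the *Vangl2* comparison, where 3.59% of all genes tested passed. The smooth muscle myosin gene *Myh11* (-0.48, limma adjusted p = 0.0339) and the nucleotide sugar receptor gene *P2ry14* (-0.85, 0.0339) fell among 20 myofibroblast and smooth muscle markers, whose median was -0.23. Of these 20 markers 16 had negative and 4 positive estimates, and 8 had an unadjusted p under 0.05. Their summed level went the other way. It ranged from 125777 to 151454 normalized read counts in controls and from 154111 to 253375 in mutants, without overlap. The lymphangiogenic factor gene *Figf* (-1.40, 0.0312) and the alcohol dehydrogenase gene *Adh1* (-0.78, 0.0344) fell among 16 matrix and lipid fibroblast markers (median -0.34). That list was mixed, with 9 negative and 7 positive estimates between -1.84 and 3.60. Of the 16, 13 had an unadjusted p under 0.05, against 22.5% of all genes tested. The potassium channel subunit gene *Abcc9* rose (0.67, limma adjusted p = 0.0326) among 15 pericyte markers whose median was -0.16. Of these pericyte markers 11 had negative and 4 positive estimates, and 5 had an unadjusted p under 0.05. Type I markers had a median of 0.46, with *Hopx* (0.75, 0.0436) and *Scnn1g* (0.73, 0.0312) higher, and type II markers 0.41, with *Sftpa1* (1.89, 0.0329) and *Slc34a2* (0.63, 0.0394) higher. Estimates were positive for 10 of 12 markers in each of these lists, and 9 type I and 7 type II markers had an unadjusted p under 0.05. The complement gene *C1qa* rose among the macrophage markers (0.59, limma adjusted p = 0.0498; list median 0.61). Of the 12 macrophage markers tested 9 had positive estimates and 8 had an unadjusted p under 0.05. No endothelial, platelet or cardiac marker passed in limma (0, 1 and 1 at an unadjusted p under 0.05; leading members *Erg*, 0.33, *Gp1bb*, -0.89, and *Myl2*, -1.45). Of the 12 list genes that passed in this comparison, *St14* and *Etv4* included, 0 passed without any 1 of the 3 controls or without mutant replicate 2, 10 without mutant replicate 1 and 12 without mutant replicate 3.

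In the P2 *Ror2* comparison no gene of any list passed in limma, and no gene of the whole table did (3380 at an unadjusted p under 0.05, 0 with edgeR and 803 with DESeq2). All 15 endothelial markers had positive estimates (median 0.28, leading member *Erg*, 0.40, adjusted p = 0.203), and the pericyte, myofibroblast and matrix fibroblast lists had medians of 0.00, -0.09 and 0.02 (*Kcnk3*, -0.43, *Lmod1*, 0.49, and *Figf*, -0.99, with adjusted p of 0.203, 0.213 and 0.203). Type I and type II lists had medians of 0.44 and 0.30 (*Igfbp2*, -1.24, and *Slc34a2*, 0.58, both with adjusted p = 0.203), and platelet and macrophage lists -0.35 and -0.32 (*Ppbp*, -1.25, and *Mertk*, 0.89). Estimates were positive for 11 of 12 type I, 10 of 12 type II, 3 of 12 platelet and 2 of 12 macrophage markers. Cardiac markers had medians of -0.32 and -0.36 at P2 and 0.23 and 0.96 at P5 (*Vangl2*, then *Ror2*). Their summed level at P2 ran from 4062 to 13798 in the *Vangl2* controls and from 3484 to 7854 in the mutants. In the P2 *Ror2* lungs it ran from 5528 to 22785 and from 5749 to 11867. At P5 it ran from 2011 to 6721 in the *Vangl2* controls and from 2878 to 4738 in the mutants. In the P5 *Ror2* lungs it ran from 1337 to 5537 and from 2274 to 16641. Its part in the results was not tested.

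The genes whose values followed each PDGF gene most closely were sought over the lungs of all tables, among 13128 genes with a mean of at least 50. The measure was Pearson's r of log2 values centred on each table, over 23 or 24 lungs that share tables, genotypes and scaling, so r is a description. Spearman's rho of the genes named lay between 0.62 and 0.92. *Pdgfrb* was followed most closely by *Ttc28* (r = 0.97, Spearman's rho 0.89, 23 lungs), *Tbx4* (0.94, rho 0.89, 24 lungs), which encodes a T-box factor of lung mesenchyme, *Arhgef7* (0.94), *Sipa1l2* (0.94) and the basement membrane collagen gene *Col4a1* (0.93). *Pdgfra* was followed by *Kat6b* and *Amotl1* (both r = 0.89), *Arhgap24*, *Ccbe1* and *Zcchc24* (all 0.88). The genes nearest to *Pdgfb* were *Trib2* (0.89), *Mfng* (0.88), which encodes a Notch glycosyltransferase, *Atrn* (0.86), *St3gal2* (0.85) and *Lrfn3* (0.85). *Pdgfa* was nearest to *Zfp414* (0.81), 4921524J17Rik (0.80), B130024G19Rik (0.79), E530011L22Rik (0.78) and *Arglu1* (0.76). *Pdgfc* was nearest to *Rplp2* (0.81), *Ctps2* and *Qars* (both 0.80), *Rnf19b* (0.79) and *Rasa4* (0.78), and *Pdgfd* to *Tmem71* and the chemokine gene *Cxcl12* (both 0.75), *Fchsd2* (0.71), *Tlcd2* (0.70) and *Nos2* (0.68).

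Among the PDGF genes themselves, *Pdgfra* and *Pdgfrb* had r = 0.80 and rho = 0.88 over 23 lungs with values centred on each table, and r = 0.55 when centred on each group of 3. *Pdgfb* and *Pdgfrb* had r = 0.74, rho = 0.58 and, centred on groups, r = 0.73 over 24 lungs. *Pdgfa* and *Pdgfra* had r = -0.47, rho = -0.40 and, centred on groups, r = -0.30 over 23 lungs.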

How the data were processed

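Left lung lobes of 24 mice were sequenced. For each comparison the authors deposited a table of 23420 genes whose signal values are read counts scaled by each lung's size factor. The submitters' processing notes name DESeq2 and the mm10 build, and the aligner and counter are not given in the sources used here. The authors' own fold changes, standard errors, statistics and p-values in the same tables were not used. In every lung 100% of values lay within 0.02 of a whole number of the steps between values. Reads were taken as recovered in 21 lungs, and not in P5 control lungs whose step lay close to 1. The P2 tables were also tested with edgeR 4.0.16 and DESeq2 1.42.0.

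The main test was limma 3.58.1 (R 4.3.3; lmFit, eBayes with a trend) on log2(normalized read count + 1), over genes with at least 1 in at least 3 lungs, and p-values were adjusted by Benjamini-Hochberg across the whole table, with a threshold of 0.05. The design foresaw edgeR for raw counts only, and the tables hold normalized values. Fold changes on this scale are understated for weakly expressed genes. In the P5 *Ror2* table, control replicate 1 was set to missing for genes on chromosomes 5 to 9 and X, and 175 genes of unknown chromosome were left out. Ratios were tested by exact two-sided permutation over lungs (scipy). The fit was tested on simulated data with 200 changed genes. Tables were scaled separately, so only contrasts and ratios within a lung were compared between them.

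Same-numbered lungs tended to deviate together in both *Vangl2* comparisons (correlation of deviations 0.122, 0.123 and 0.231 at P2, and 0.607, 0.581 and 0.211 at P5). In the P2 *Ror2* comparison the correlations were 0.03, 0.371 and 0.327, so the lungs numbered 2 and 3 deviated together there as well. In the P5 *Ror2* comparison they were 0.133, -0.042 and -0.135. This pairing comes from the data, since the labels give only numbers.

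All 6 PDGF genes are named. From each list every gene that passed was named (at most 4 per comparison), otherwise the gene with the smallest p, and the 5 genes most like each PDGF gene. The receptor attenuation gene that this rule names in the P5 *Ror2* comparison is not reported here. The members and lists were chosen with earlier results of these data known. Loci and exon lengths are from GENCODE vM21, and promoter sequences from RefSeq (GRCm38.p6).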

Additional observations from a re-analysis of the deposited data

How the results depend on the processing

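Groups of 3 lungs limit the precision, and *Pdgfc*, with the fewest reads, has the most counting error. The count of genes passing moved with the setting. Leaving out 1 lung at a time gave 1 to 2333 genes in the P2 *Vangl2*, 0 to 859 in the P2 *Ror2*, 0 to 54 in the P5 *Vangl2* and 0 to 898 in the P5 *Ror2* comparison (626, 0, 98 and 31 with all lungs). The lowest counts came without control replicate 2 or 3, without several lungs, without mutant replicate 3, and without control replicate 2 or mutant replicate 2, and the highest without mutant replicates 3, 2, 2 and 3. Leaving out 1 lung gave 0 to 4 for the difference between the mutants at P5 (2), which was 5 with upper quartile scaling. DESeq2 gave 2001 and 803 genes at P2. The replicate block gave 1 gene in the P2 *Ror2*, 1558 in the P5 *Vangl2* and 1 in the P5 *Ror2* comparison, and with the listed zeros of control replicate 1 kept the P5 *Ror2* count was 1. The causes were not tested. Of the PDGF genes, 1 passed in the P2 *Vangl2* comparison under DESeq2, 2 passed in the P5 *Vangl2* comparison with the replicate block, and leaving out 1 lung gave 0 to 1 at P2 *Vangl2* and 0 to 2 at P5 *Ror2*. The block changed no other PDGF call.

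Signs turned for small values. Leave-one-out ranges of log2 fold changes were -0.18 to 0.39 for *Pdgfra* and -0.07 to 0.06 for *Pdgfrb* (P2 *Vangl2*), -0.05 to 0.13 for *Pdgfc* and -0.12 to 0.37 for *Pdgfd* (P2 *Ror2*), and -0.42 to 0.31 for *Pdgfd* (P5 *Ror2*). *Pdgfc* in the P2 *Ror2* comparison was -0.01 with upper quartile scaling. With the listed zeros kept, *Pdgfd* was 2.61 and *Pdgfra* 3.52 in the P5 *Ror2* comparison, since the missing lung then counts as 0. The log2 ratio of *Pdgfra* to *Pdgfrb* changed by -0.11 to 0.33 at P2 and -0.19 to 0.10 at P5 (*Vangl2*), and by -0.07 to 0.21 between *Vangl2* controls of P5 and P2, and that of *Pdgfa* to *Pdgfra* by -0.18 to 0.15 (P2 *Ror2*). Upper quartile scaling moved the median of all genes in the *Vangl2* P5 minus P2 difference to 0.12. Setting control replicate 1 to missing only where it lacks reads was added after seeing the data and moved no PDGF call. The count tests were not run at P5, where the reads of 3 control lungs were not taken as recovered.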
